A study of Caenorhabditis elegans with 2 samples.

Results

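Of the 8748 nuclear DAF-16 binding sites (peaks) that passed the comparison of replicates by irreproducible discovery rate (IDR), 527 (6.02%, 95% Wilson interval 5.55 to 6.54) held the palindromic E-box CACGTG wholly within 75 bp of the summit. They were chosen by this sequence match alone, in the ce11 genome, and neither signal nor location was used. The list held 8777 peaks with the 29 on the mitochondrial genome, which were left out. The data came from chromatin immunoprecipitation and sequencing of DAF-16 in strain XE1464, at the L4 stage, from whole animals of both sexes. This strain has an unc-119(ed3) background and stably carries a transgene for DAF-16 with a C-terminal GFP-FLAG tag. Both libraries were biological replicates of this 1 group, with no untreated, mutant or fasted group beside it, and the labels do not say how the cultures were separated. The tagged protein came from a transgene, and whole animals mix all tissues, so no site can be placed in a cell type. Read depth is unknown, because the lists hold no read counts, and intervals of shares cover counting error only.

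DAF-16 is the FOXO transcription factor of the worm, held in the cytoplasm by insulin-like signalling and known for its roles in stress resistance, dauer formation and lifespan. The E-box CACGTG is read by basic helix-loop-helix proteins, whereas forkhead proteins such as DAF-16 read the sequence GTAAACA. The proteins that read the E-box include HLH-30, the worm TFEB, which activates autophagy and lysosome genes, and those of the Myc-Max-like network. In that network MXL-1 pairs with MDL-1, MXL-2 pairs with MML-1, and MXL-3 represses lysosomal lipase genes in fed animals. The extended form that TFEB prefers, called CLEAR, has GT before the core on both strands.

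The cores at 8 of the strongest of these peaks are given because they show how varied the bases around the shared palindrome were. All sequences are from the RefSeq genome of the assembly WBcel235 (ce11), 5′ to 3′ on the + strand, with the E-box in capitals. Each is named by the nearest start of a protein-coding gene.
T10C6.15 (chrV:16046073-16046102, + strand): aattatcactatCACGTGggttgtagcttg
Y54G11A.7 (chrII:14296534-14296563, + strand): ccaatgaagacgCACGTGctatatctgttt
K02A6.3 (chrX:8232092-8232121, + strand): ggactctgtttcCACGTGactttctgcaat
fkh-7 (chrIV:5591326-5591355, + strand): attcaaaaacttCACGTGtttgtctttttg
F22B7.9 (chrIII:8658429-8658458, + strand): tcacgttaaataCACGTGtcaatttatgta
ipla-3 (chrV:20729136-20729165, + strand): ctctgcgtctctCACGTGctcttattgtct
R06B9.5 (chrII:13737936-13737965, + strand): ctcgatttcttcCACGTGgttgtttattgt
W05H9.4 (chrX:6255747-6255776, + strand): aagtgatcggggCACGTGggcagcaggtca
Whole windows, 75 bp on either side of the summit, follow for 3 members that also held a DAF-16 binding element (DBE, GTAAACA), because they show both kinds of site under 1 summit, with the DBE in capitals too. At aqp-1 the capitals also mark a DAF-16 associated element (DAE, CTTATCA), read on the other strand as TGATAAG.
T10C6.15 (chrV:16046015-16046165, + strand): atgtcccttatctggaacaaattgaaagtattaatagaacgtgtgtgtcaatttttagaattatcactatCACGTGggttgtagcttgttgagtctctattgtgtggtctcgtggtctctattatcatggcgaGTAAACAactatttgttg
F22B7.9 (chrIII:8658438-8658588, + strand): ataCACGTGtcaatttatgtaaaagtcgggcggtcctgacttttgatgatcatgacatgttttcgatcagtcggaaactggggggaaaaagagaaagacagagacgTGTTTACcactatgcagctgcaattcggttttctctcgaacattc
aqp-1 (chrII:7238408-7238558, + strand): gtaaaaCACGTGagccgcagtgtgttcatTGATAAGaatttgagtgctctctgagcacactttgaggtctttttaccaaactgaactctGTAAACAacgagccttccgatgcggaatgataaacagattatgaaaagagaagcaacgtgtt
The window near nadk-1, a NAD kinase gene, held 2 cores and is given as an example of that kind, chosen after its signal was seen.
nadk-1 (chrIV:1454323-1454473, + strand): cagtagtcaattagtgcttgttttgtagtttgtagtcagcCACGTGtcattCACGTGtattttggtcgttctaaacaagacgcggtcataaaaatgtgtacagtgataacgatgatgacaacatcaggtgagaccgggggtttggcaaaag
Windows with 1 core numbered 514 and windows with 2 cores 13, so that the 527 windows held 540 cores. None held 3.

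E-box peaks were stronger than other DAF-16 peaks. Signal is the authors' own score of a peak, whose scale is not stated and which is used here only to rank and compare peaks within a list. The E-box peaks ranged from 35.5 to 911.1 with a median of 145, and the other 8221 peaks from 35.4 to 1392 with a median of 105. Both sets thus spanned most of the same range. On the log2 scale the difference in means was 0.41 (standard error 0.0516, 95% interval 0.309 to 0.511), in a linear regression over all peaks (n = 8748) with errors clustered on 100 kb blocks (adjusted p = 3.68e-14 over 18 regressions). Among the stronger 50% of peaks, a set cut on the signal itself, it was 0.177. The strongest 10% of all peaks held 100 of the E-box peaks (18.98%) and 775 of the others (9.43%). The single strongest E-box peak ranked only the 15th of all peaks.

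The same order was seen in each replicate's own list, which the IDR list combines. Over peaks found in both replicates, 449 with the E-box and 6309 without it, the median signal was 90.9 against 63.5 in replicate 1 and 66.5 against 50.03 in replicate 2. The log2 differences were 0.471 (0.334 to 0.609, p = 1.81e-11 unadjusted) in replicate 1 and 0.33 (0.195 to 0.464, p = 1.63e-06 unadjusted) in replicate 2, from the same kind of regression (n = 6758 peaks). The replicates are the only independent samples, and the p-values describe the spread between genomic blocks.

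**Figure D1:**
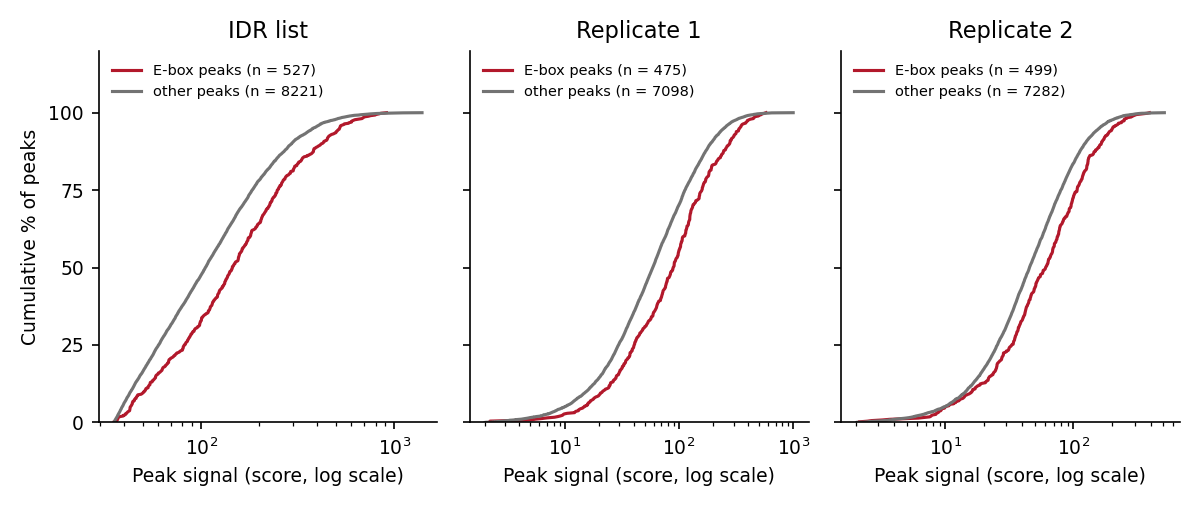
Cumulative share of peaks (y axis, %) against peak signal (x axis, score, log scale) in the IDR list and among matched peaks in each replicate, for E-box peaks (red) and other peaks (grey). The red curve lies to the right of the grey one over most of the range in all 3 panels, with IDR list medians of 145 and 105.

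The share of peaks with the E-box rose with signal. From the weakest to the strongest 20% of the IDR list it was, in steps of 20%, 3.89%, 4.23%, 5.60%, 6.75% and 9.66%. In the list of replicate 1, cut to its strongest 8777 peaks, the weakest 20% had 3.31% and the strongest 9.31%. In that of replicate 2 the shares were 3.94%, 4.34%, 6.11%, 5.54% and 8.91%, so the share did not rise at every step there. Among 13689 nuclear entries of the pooled list that were not in the IDR list, 381 (2.78%, 2.52 to 3.07) held the core.

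**Figure D2:**
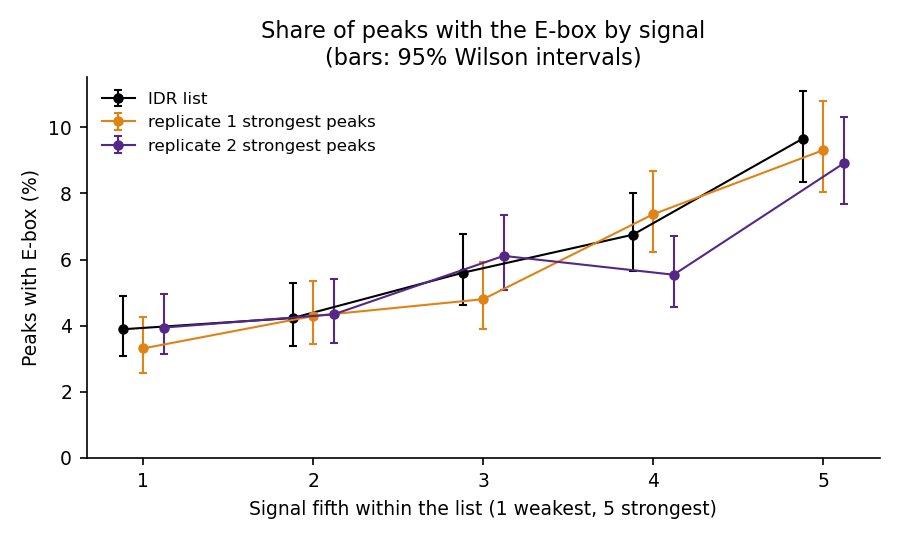
Share of nuclear peaks with the E-box (y axis, %) in 5 equal parts of each list by signal (x axis, 1 weakest to 5 strongest), with 95% Wilson intervals as bars. The strongest parts stand at 9.66% in the IDR list, 9.31% in replicate 1 and 8.91% in replicate 2, and the weakest between 3.31% and 3.94%.

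E-box peaks were also found in both replicates more often. A summit of each replicate's own list lay within 100 bp for 449 of 527 (85.2%) E-box peaks and for 6309 of 8221 (76.7%) others, beside 77.3% of all nuclear peaks. The log2 odds ratio was 0.803 (0.425 to 1.18, adjusted p = 0.000285, n = 8748 peaks, logistic regression with clustered errors). With signal and chromosome as covariates it was 0.263 and among the stronger 50% of peaks 0.367, and neither passed the test. Replicate 1 alone matched 26 of the E-box peaks, replicate 2 alone 50, and neither matched 2. A member named here after its values were seen, near nipi-3, a Tribbles-like kinase gene, had a signal of 406.9 in replicate 1 and 4.7 in replicate 2, although its IDR list signal was 525.3.

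Cores were more frequent at the summits than farther away. In bins of 25 bp, 1.28 cores per 100 peaks fell in the bin centred on the summit, against a mean of 0.47 and a highest value of 0.606 in bins 200 to 500 bp away, a ratio of 2.73. This ratio was 4.35 in the strongest 20% of peaks and 1.77 in the weakest, where the central bin (0.8) did not exceed the highest bin far away (0.8). Among members the median distance of the core centre was 30.5 bp, a value that the rule itself limits. The median signal was 145 for members with a core centre within 25 bp (213 peaks) and 150 for those with it beyond 50 bp (134 peaks), without a test. Just inside the 75 bp limit, the 150 members with no complete core within 50 bp had a median signal of 150, and just outside it, the 120 peaks with a core only between there and 100 bp had 132.

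**Figure D3:**
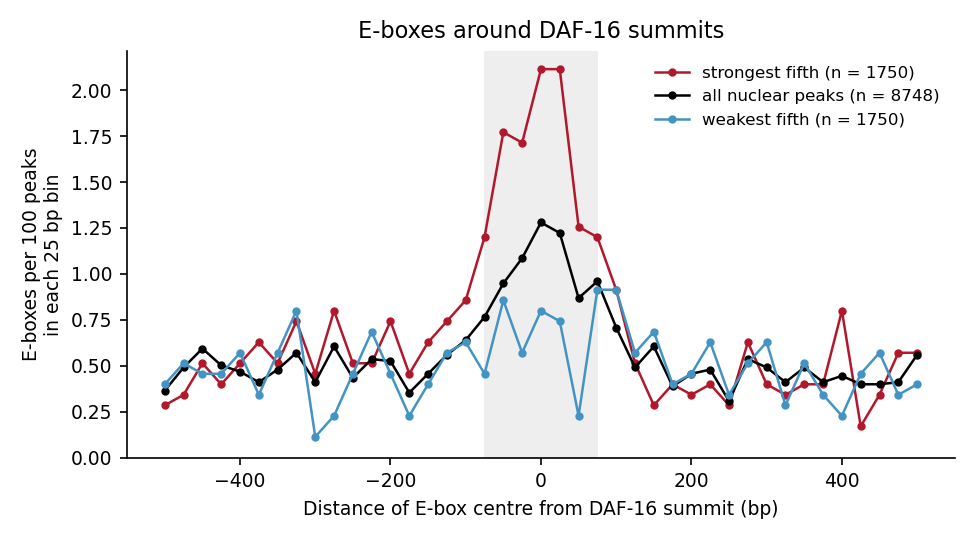
E-box cores per 100 peaks in each 25 bp bin (y axis) by distance of the core centre from the summit (x axis, bp), for all nuclear peaks and for the strongest and weakest 20%, with the 75 bp window shaded. The line of the strongest 20% peaks at 2.11 and that of all peaks at 1.28, and beyond 200 bp the lines cross each other.

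CACGTG was 1 of 10 possible E-boxes of the form CANNTG, and most of the others were less concentrated at summits. Each was sought on both strands in the window at the summit and in a window of the same length centred 500 bp away. CACGTG stood at 6.02% against 2.82%, a ratio of 2.13, and CACATG at 9.87% against 4.72%, a ratio of 2.09. CAAGTG followed at 1.55, CAACTG at 1.31 and CAGCTG, a form bound by many tissue-specific factors, at 1.27. CATATG (0.975) and CAGATG (0.954) were not more frequent at summits. These ratios are descriptions without a test.

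CACGTG peaks differed in signal from peaks with CACATG, from those with CAGCTG and from those with a DBE, in 6 comparisons that were added after the data had been seen and adjusted together. Peaks with both kinds of sequence were left out of each. CACGTG peaks had a median of 144 against 118 for 818 peaks with CACATG, a log2 difference of 0.24 (0.118 to 0.362, adjusted p = 0.000718, n = 482 and n = 818). Against 309 peaks with CAGCTG the difference was 0.285 (0.13 to 0.441, adjusted p = 0.000735, n = 507 and n = 309). Peaks with the DBE were stronger than CACGTG peaks, with a median of 175 against 140 and a difference of -0.239 (-0.371 to -0.108, adjusted p = 0.000735, n = 479 and n = 734). The share found in both replicates did not pass the test in any of these 3 comparisons, with log2 odds ratios of 0.258 (-0.216 to 0.733), 0.332 (-0.248 to 0.912) and -0.405 (-0.898 to 0.088).

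Only a small part of the genome's E-boxes lay at DAF-16 summits, and the bases next to the core differed between those that did and the rest. Of 17729 cores on the nuclear chromosomes, 540 (3.05%) had an IDR summit within 75 bp. In promoter windows, from 1000 bp upstream to 300 bp downstream of a protein-coding transcript start, 279 of 5231 (5.33%, 4.76 to 5.98) were bound in this sense, against 261 of 12498 elsewhere (2.09%, 1.85 to 2.35). Cores in soft-masked repeats, 22.2% of all, were bound in 1.48% of cases, against 3.49% of the others.

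Over the whole nuclear genome, cores with a T before the core on both strands had the highest share bound, close to that of cores with G and T. Each core was classed by the pair of bases that precede it on its own 2 strands, in any order, and bound was fitted with the promoter window as a covariate (logistic regression, clustered errors, adjusted over 10 pairs). Cores with T and T were bound in 70 of 1267 cases (5.52%), a log2 odds ratio against all others of 0.94 (0.561 to 1.32, adjusted p = 5.89e-06, n = 17729 cores). Cores with G and T were bound in 5.20% of 1174 (0.851, 0.455 to 1.25, adjusted p = 6.43e-05, n = 17729 cores). Cores with A and T were bound in 4.32% of 1992 (0.574, 0.224 to 0.925, adjusted p = 0.00265, n = 17729 cores). Without replicate 2 this last value was 0.383 and did not pass the test.

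The other called classes, with C and C or A and C beside the core, were bound less often. Cores with C and C were bound in 38 of 3000 cases (1.27%, log2 odds ratio -1.44, -1.92 to -0.958, adjusted p = 4.13e-08, n = 17729 cores). Those with A and C were bound in 62 of 3370 (1.84%, -0.837, -1.22 to -0.452, adjusted p = 6.43e-05, n = 17729 cores). C with G (-0.2, -0.643 to 0.244) and C with T (0.143, -0.199 to 0.486) did not pass the test. Cores with G and G, at 0.635 (-0.05 to 1.32), did not pass. In promoter windows 16 of the 121 with G and G were bound (13.2%), beside 33 of 421 with T and T (7.84%), without a test. Without replicate 1 the cores with G and G did pass (0.782, adjusted p = 0.0406, n = 17729 cores).

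The longer flank of the CLEAR form was rare, and shares by this flank were not tested. A GT before the core puts a T next to it. The classes with a T were bound in 3.32% (C and T) to 5.52% (T and T) of cases. Cores with a T but no G before it were not counted apart, so the share with GT cannot be credited to the longer flank. With GT before the core on neither strand, 455 of 16275 cores were bound (2.80%, 2.55 to 3.06), and with GT on 1 strand 83 of 1424 (5.83%, 4.73 to 7.17). With GT on both strands, the CLEAR palindrome, 2 of 30 were bound (6.67%, 1.85 to 21.3), an interval that spans both other classes. Those 2 members are printed because they are the only ones with that form, with the core in capitals.
C06A6.2 (chrIV:7844557-7844586, + strand): ttatcagggagtCACGTGacagttcagttg
F21D5.3 (chrIV:8729838-8729867, + strand): tttatcagacgtCACGTGactttctgttat
Among members, signal by flank did not pass the test. The 69 peaks with T on both strands differed from the other 458 by 0.0271 (-0.251 to 0.305) on the log2 scale.

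Location with respect to genes did not pass the test in any class, and the lowest adjusted p was 0.0686 (n = 8748 peaks), for introns. The summit lay in a promoter window in 271 of 527 members (51.4%) and 4422 of 8221 other peaks (53.8%), beside 53.6% of all (log2 odds ratio -0.137, -0.404 to 0.13). Divergent promoters, where genes on both strands share the site, held 6.45% against 9.67% (-0.634, -1.16 to -0.113). Introns held 29.4% against 24.4% (0.369, 0.0831 to 0.656).

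The remaining classes were intergenic sequence with 59.6% against 60.8%, 5' UTR with 3.42% against 4.85%, coding exon with 4.17% against 6.09%, and 3' UTR with 3.42% against 3.77%. The intervals of the small exonic classes were wide, from -1.23 to 0.0787 for coding exons on the log2 odds scale. The median distance to the nearest start was 725 bp for members and 632 bp for the others, a log10 difference of 0.0639 (0.00235 to 0.126). Members lay upstream of that start in 68.3% of cases and the others in 68.1%. On the X chromosome lay 121 members (23.0%) and 23.1% of the others, and between chromosomes the share of peaks with the core ran from 5.17% on I to 6.97% on IV.

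None of the 5 motifs tested differed in frequency between E-box peaks and other peaks by the test, with adjusted p from 0.968 to 0.99 (n = 8748 peaks). Each was sought on both strands within 75 bp, with the E-box left in place, so that a motif could share bases with it. The DBE GTAAACA was in 9.11% of members and 8.93% of the others (log2 odds ratio 0.0316, -0.428 to 0.491). The DAE CTTATCA was in 21.8% of both (-0.0021, -0.323 to 0.319). TGATAA, the site of GATA factors, which the DAE contains on its other strand, was in 43.1% and 42.4%. GAGAGA was in 22.4% and 23.2%, and TTCNNGAA, a part of heat shock elements, in 7.02% and 6.29%. The G and C content outside the core was 38.9% and 38.8%.

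Median signal was higher with the E-box in windows with the DBE, in windows with the DAE and in windows with none of DBE, DAE and TGATAA. Windows with none of these 3 had a median of 125 with the E-box (272 peaks) and 87.3 without it (4277 peaks). Windows with the DBE had 222 with the E-box (48 peaks) and 175 without it (734 peaks). Windows with the DAE had 163 (115 peaks) and 131 (1796 peaks). These medians are descriptions. With the 5 motifs, G and C content, promoter classes and X linkage as covariates the log2 difference stayed at 0.41. Where a core and a DBE shared a window, their centres were a median of 39.0 bp apart. The closest pair, 4.5 bp apart, overlapped.

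**Figure D4:**
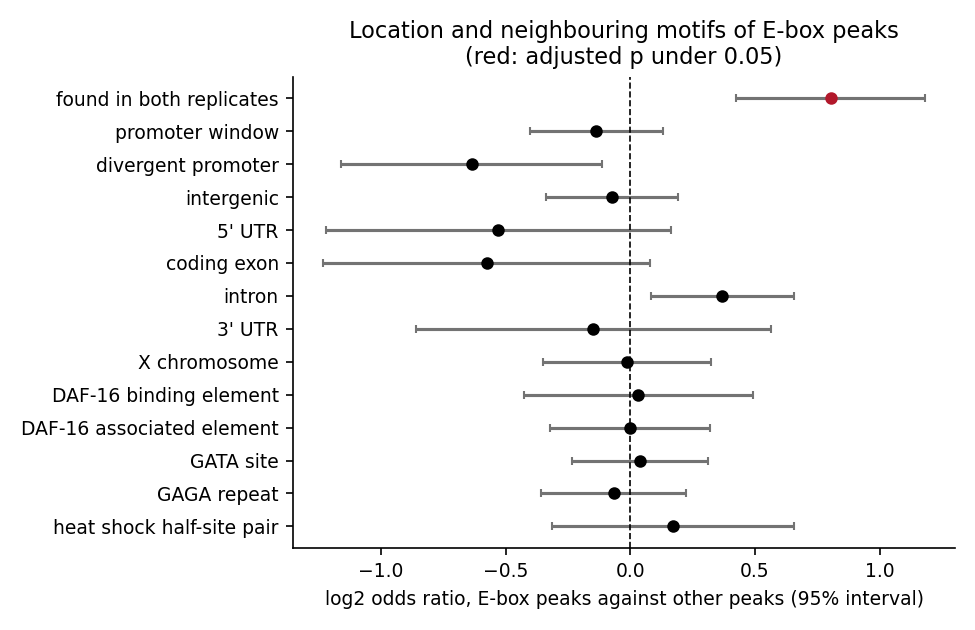
Log2 odds ratios (x axis) of location classes and neighbouring motifs for 527 E-box peaks against 8221 other peaks, with 95% intervals from logistic regressions with errors clustered on 100 kb blocks; the value at 0 means no difference. Only presence in both replicates, at 0.803, has an adjusted p under 0.05 (red).

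A search over every 6-mer beside the core gave calls that depended on the version of the test. A linear probability fit of each of 2079 6-mers, as it had been designed, called 16 (0.77%) less frequent in E-box peaks and 0 (0%) more frequent at an adjusted p under 0.05, and 225 had an unadjusted p under 0.05. The call with the smallest p was for a 6-mer that no member held, so that its estimated error held no spread among members. The test was changed 3 times after its calls had been seen, and the last version, whose variance could not fall below the binomial one, called 0 of 1947, with 134 at an unadjusted p under 0.05. The cores were masked in members only, which left members fewer positions for any 6-mer, and masking an equal stretch in the other windows reduced the 16 calls to 6. No 6-mer is therefore reported as depleted.

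The strongest E-box peaks lay near genes of varied function, and no gene class was tested. The top peak, upstream of T10C6.15, had a signal of 911.1, with 529.6 in replicate 1 and 392.0 in replicate 2. It was followed by Y54G11A.7 (852.6, with 501.0 and 374.4) and K02A6.3 (832.8, with 555.7 and 310.0). An intron peak of fkh-7, a forkhead factor gene, had 805.8, with 576.3 and 249.3. These 4 were strong in both replicates. Replicate 1 had the higher score each time, as it had in the median over E-box peaks found in both (90.9 against 66.5). The other peaks found in both had the same order (63.5 against 50.03). As the scale of the score is not stated, its size cannot be compared between lists.

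Among genes of known function, fbp-1 encodes fructose-1,6-bisphosphatase, an enzyme of gluconeogenesis. The peak 1458 bp upstream of its start had 702.5, with 496.4 in replicate 1 and 221.6 in replicate 2, and it lay over the 3' UTR of ptr-12. The promoter peak of gst-42, a glutathione S-transferase gene, had 680.2, with 448.4 and 237.0, and a summit 3 bp upstream of the start. The peak of aqp-1, an aquaporin gene, had 623.9, with 344.7 and 260.8, and was the window printed above with a DBE and a DAE beside the E-box. Other members of the strongest 20 lay nearest to pnp-1, a purine nucleoside phosphorylase gene (604.4), pnk-1, a pantothenate kinase gene (582.8), and fkh-9, a further forkhead gene (551.2). The rest of these 20 lay nearest to F22B7.9 (795.0), ipla-3 (753.5), R06B9.5 (734.8), W05H9.4 (693.6), F16A11.1 (686.9), nceh-1 (653.4), F53E4.1 (614.7), F42G4.6 (600.4), sea-2 (600.2) and the nuclear receptor gene nhr-19 (579.5).

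The loci of the genes that encode the E-box factors are described by their counts, beside the 6.02% of all peaks that held the core, and differences between these genes were not tested. Within 5 kb of mdl-1, which encodes the Mad-like partner of MXL-1 and is known as a DAF-16 target, lay 10 DAF-16 peaks, 5 of them with the core. Its strongest, 1692 bp from the gene's start and just downstream of its end, had a signal of 518.8, with 349.4 in replicate 1 and 203.9 in replicate 2. The promoter peak 56 bp upstream of the start had 271.1, with 159.6 and 129.4. The start of mdl-1 was the nearest one for 6 members, the most of any gene, and the strongest of them (524.7, with 396.0 and 119.6) lay 7919 bp away in an intron of abts-4.

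At mxl-3 lay 7 peaks within 5 kb, 3 of them with the core. The strongest of those, 2861 bp upstream, had 198.1, with 120.8 in replicate 1 and 77.7 in replicate 2, while the strongest of all there (283.6) had no core. At mml-1, 1 of 6 peaks held the core (162.6, with 90.5 and 68.7). At hlh-30, none of 10 peaks did, although 3 of them held a DBE. None of the peaks within 5 kb of mdl-1, mxl-3 or mml-1 held a DBE, beside 782 of all 8748 nuclear peaks. mxl-2 had 2 peaks without a core and mxl-1 had no peak within 5 kb.

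The cores at mdl-1 and mxl-3 are printed because these loci carried several each; they are named in the order of signal and have the core in capitals.
mdl-1 (chrX:6750267-6750296, + strand): aaaacatagaccCACGTGtgggtgcgtccg
mdl-1 (chrX:6744025-6744054, + strand): ccacatgttgatCACGTGtcgccgatcagt
mdl-1 (chrX:6742214-6742243, + strand): tcatgcgaggcgCACGTGcatacacacaca
mdl-1 (chrX:6742970-6742999, + strand): gtaagtttcatcCACGTGcgtctagcgtgt
mdl-1 (chrX:6739577-6739606, + strand): atcaatcgtcggCACGTGtagtttgcaaca
mdl-1 (chrX:6741682-6741711, + strand): caaaattgaagaCACGTGatgaattgtaac
mxl-3 (chrX:13353631-13353660, + strand): tgatcaacacttCACGTGcggtacgcgtgt
mxl-3 (chrX:13348610-13348639, + strand): gtcatttgatgaCACGTGtgatgatatgcc
mxl-3 (chrX:13354862-13354891, + strand): atctatccccgcCACGTGactgcaacgcta

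**Figure D5:**
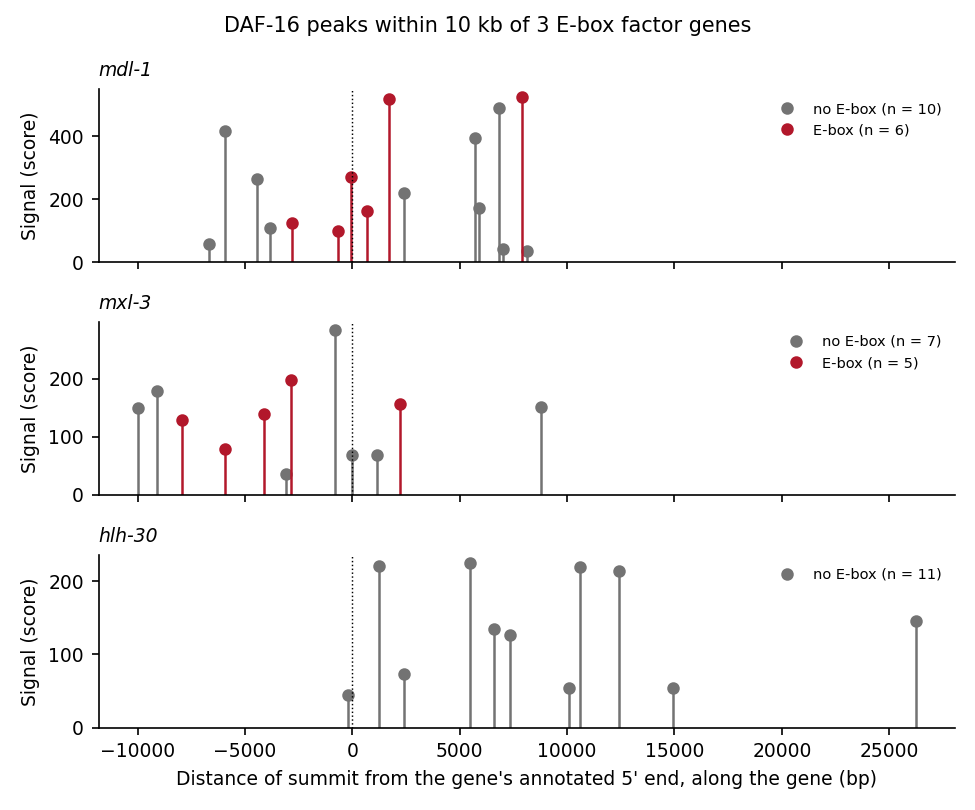
Signal (y axis, score) of every nuclear IDR peak within 10 kb of mdl-1, mxl-3 and hlh-30 by distance of the summit from the annotated 5' end of the gene, along its strand (x axis, bp), with E-box peaks in red and the others in grey. The E-box peaks number 6 of 16 at mdl-1, 5 of 12 at mxl-3 and 0 of 11 at hlh-30.

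Genes of autophagy, lysosomes and lipases, and of further pathways, were taken from lists. They are given as counts beside the same count over all genes and without a test. Of 19973 protein-coding genes, 4779 (23.9%) had any nuclear IDR peak in a promoter window and 295 (1.48%) an E-box peak, which is 6.17% of those with a peak. Between 45.5% and 85.7% of each list had any peak, and the counts with the E-box were small. Of 28 annotated autophagy genes, 18 had a peak and 3 an E-box peak (16.7% of those with a peak). Of 10 lipase genes, 5 had a peak and 2 an E-box peak. Of 41 lysosomal genes, 28 had a peak and 2 an E-box peak (7.14%).

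The autophagy genes were epg-7, which encodes a scaffold protein, with 243.3 (132.7 in replicate 1 and 102.6 in replicate 2), atg-9, which encodes a membrane protein of the autophagosome, and atg-3, which encodes a conjugating enzyme. The atg-9 peak had 175.2 (120.5 and 48.0), and the atg-3 peak, in the 5' UTR, had 66.9 (17.9 and 25.8). The lipase genes were lipl-2, with 305.1 (182.5 and 125.4), and lipl-5, with 178.7 (76.1 and 64.0). The summits of these lipase peaks lay 66 bp and 68 bp upstream of the starts. The cores at 4 of these genes are printed with the core in capitals because they belong to the classes HLH-30 and MXL-3 are known to control.
epg-7 (chrX:7334560-7334589, + strand): gcctctgtacgtCACGTGatttgcagccgc
atg-9 (chrV:349206-349235, + strand): ccacccgctgttCACGTGccccctccctcc
lipl-2 (chrV:9791516-9791545, + strand): acaatacttcgaCACGTGtttcatatataa
lipl-5 (chrV:385689-385718, + strand): acgaaattcaaaCACGTGgtgtgcatattt

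Of the lysosomal genes, gba-1, a glucocerebrosidase gene, had 111.1 (44.3 in replicate 1 and 30.9 in replicate 2) and cpr-1, a cathepsin B-like protease gene, 90.1 (53.3 and 8.5). Among 17 bound genes of glycolysis and gluconeogenesis, 2 had an E-box peak, aldo-2, an aldolase gene (139.8, with 90.6 and 28.3), and hxk-3, a hexokinase gene (104.2, with 40.8 and 49.1). Of 10 bound insulin signalling genes it was sir-2.1, a sirtuin gene (55.9, with 35.6 and 17.1). Other lists held none: 0 of 11 bound vacuolar ATPase genes and 0 of 10 bound genes of TOR and lysosomal nutrient sensing. Ribosome biogenesis had 0 of 15, and mitochondrial dynamics with its unfolded protein response 0 of 12. A list of basic helix-loop-helix PAS factors and the hypoxia pathway had 0 of 6. These counts stand beside the 6.17% over all bound genes.

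Nuclear hormone receptor genes are described as a family chosen after the values were seen, and without a test. They were the family with most peaks, both among members and among the other peaks. The nearest start belonged to an nhr gene in 23 of 527 members (4.36%) and 193 of 8221 others (2.35%), so that 10.6% of the peaks nearest to nhr genes held the core, beside 6.02% of all peaks. Of the 15 name families with most peaks, pqn had a higher share (4 of 33, 12.1%). At nhr-19, 3 members had it as the nearest start, with the strongest at 579.5 (348.6 in replicate 1 and 262.6 in replicate 2) in an intron. Neighbouring peaks at 1 gene share their surroundings and are not independent. In all, 466 genes were nearest to a member, and 47 of them to 2 or more.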

How the data were processed

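DAF-16 was immunoprecipitated from whole L4 larvae in 2 biological replicates, per the labels, after sonication. The authors deposited peak lists for each replicate, for both pooled, and an IDR-thresholded one, on ce11 and ce10; only the ce11 lists were used. The signal of a peak is a deposited score, with no scale stated by the authors. Aligner, peak caller and IDR cutoff were not given in the sources used here, and read depth is unknown. Replicate 1's list held 16146 entries, replicate 2's 21378 and the pooled list 22466.

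The summits were joined to the RefSeq sequence and the Ensembl release 115 annotation of the same assembly (protein-coding genes, with 5' UTR taking precedence over coding exon, then 3' UTR, then any other exon, then intron). In the IDR list 73 nuclear entries repeat an earlier interval with another summit, 3 of them E-box peaks; no pair of summits lay closer than 150 bp. E-box presence was the term in linear or logistic regressions over all 8748 nuclear peaks, with errors clustered on 100 kb blocks and Benjamini-Hochberg adjustment over 18 regressions, called at an adjusted p of 0.05. The linear and logistic fits were tested on simulated data, and the 6-mer fits with shuffled E-box labels and with 6-mers added to members.

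The 6-mer search departed from its design. It was first run on 6-mers in at least 50 peaks, with clustered Wald errors. It was then changed 3 times, each time after the calls had been seen: rarer 6-mers were dropped, a score test was used, and its variance was bounded. The reason was that all versions but the last made calls when the E-box labels were shuffled over the peaks, without regard to blocks. The fit over all 6-mers, as designed, is kept as the main one, and the closing section gives every count. Annotation classes were first assigned from genes of all biotypes and then from protein-coding genes only.

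The genes named are the 20 strongest E-box peaks by nearest start, up to 4 members of each list with the strongest E-box promoter peak, and hlh-30, mxl-1, mxl-2, mxl-3, mml-1 and mdl-1, other names being said to be chosen after their values were seen. The members, lists and tests were chosen with earlier results of these data known. Listed names not found in the annotation were ostm-1, epg-1, atg-11 and bop-1. Alternatives were other windows, the stronger 50% of peaks, each replicate's strongest 8777 peaks, covariates and another promoter window. Fits ran in statsmodels 0.14.6 (Python 3.11.15, scipy 1.17.1, pandas 2.3.3, numpy 2.4.6), plots in matplotlib 3.10.9. Sequences of chromosome I are not reported here.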

Additional observations from a re-analysis of the deposited data

How the results depend on the processing

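Higher signal of E-box peaks kept its call with a 50 bp window, with covariates and with 1 replicate left out, with log2 differences from 0.32 to 0.507. In the stronger 50% of peaks, which cuts the list on the signal compared, it was 0.177. Of 118 alternatives of tested results, 102 kept direction and call. Most of the 118 belong to results that did not pass the main test, where keeping the call means not passing again. For those that changed, the cause was not tested. Merging summits closer than 150 bp is not counted, since none were. Presence in both replicates lost its call in the stronger 50% (0.367) and with signal and chromosome as covariates (0.263). The share of peaks with the core was 4.31% within 50 bp, 7.40% within 100 bp, 7.82% in the stronger 50%, 4.05% in the pooled list, and 5.77% to 5.82% with 1 replicate left out. The following values, none past the test in any setting, changed sign. In the stronger 50% of peaks they were 3' UTR (0.416), GTAAACA (-0.173), TGATAA (-0.0655), G and C content (-0.368) and signal by flanking bases (-0.0416). With signal and chromosome as covariates they were 3' UTR (0.106), GTAAACA (-0.329) and TGATAA (-0.176). With a 50 bp window TGATAA was -0.000932. With 1 replicate left out, GTAAACA ran from -0.0452 to 0.272, intergenic sequence from -0.0938 to 0.00505 and TTCNNGAA from -0.0478 to 0.217. The 6-mer search was the least stable result. The designed fit called 16 of 2079, 27 in the stronger 50% of peaks (6 shared with the 16), 44 without replicate 1, 2 of them more frequent in E-box peaks, and 23 without replicate 2 (7 and 5 shared), and 6 with an equal stretch masked. The version run first called 16 of 2077 (6-mers in at least 50 peaks). The 3 later versions, chosen after seeing those calls, called 13 of 1947 (expected in at least 10 E-box peaks), 12 of 1947 (score test) and 0 of 1947 (at least the binomial variance). With an equal stretch masked these 4 versions called 6, 3, 2 and 0. No paired analysis was possible because the series has 1 group. Unknown depth leaves the limit of detection of weak peaks unknown, and the motif and location intervals set what differences these 527 peaks could show.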
